A study of Caenorhabditis elegans with 2 samples.

Results

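Strong ChIP-seq peaks at protein-coding promoters, away from small RNA genes, were examined for the tagged protein Y22D7AL.16 in embryos of Caenorhabditis elegans. A peak was a member if it was among the 1000 of highest signal in the ce11 list called on both replicates pooled, if its summit lay from 500 bp upstream to 100 bp downstream of the annotated 5′ end of a protein-coding gene, and if no tRNA, snRNA, snoRNA or rRNA gene lay within 200 bp. This gave 280 members of 28882 pooled peaks. The list is deposited as peaks and background for a later threshold of reproducibility, so entries of low rank may be background. They are 7.12% of the 3931 pooled peaks that met the same rules of position, a share that the rank of 1000 fixes. Signal is a value that the authors' caller gave each peak and that can be compared only inside its own list. It chose the members, so signals and ranks are given as a description.

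The strain, OP615, has the allele unc-119(tm4063) on chromosome III together with the integrated transgene wgIs615, from which Y22D7AL.16 is expressed with GFP and FLAG at its C terminus. Late embryos of mixed sex, taken whole 4.5 h after synchronization by egg bleaching, were immunoprecipitated with an antibody to GFP. There were 2 biological replicates in 1 group, so the lists answer where the tagged protein was found and hold no comparison of conditions. Whole embryos mix all cell types, and untagged animals were not analysed here, so signal that any open promoter may give in such an assay cannot be told apart from binding. No source used here gives the read numbers, and depth is unknown.

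Y22D7AL.16 is described in RefSeq as a protein with a C2H2 zinc finger domain, a fold that in many transcription factors reads a short DNA sequence, each finger contacting a few bases. Worm promoters are compact, many genes lie head to head and share the DNA between them, and others are transcribed together in operons. Most worm transcripts are trimmed at their start by trans-splicing of a leader, so the annotated 5′ end often lies downstream of the place where transcription begins. Genes of ribosomes, translation and energy metabolism are used in nearly all cells.

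The sequences below are shown because 13 of the 25 strongest members carried one of 4 short elements near the summit, which were picked from a ranking described further on. Each line gives 101 bases of the RefSeq WBcel235 genome (the ce11 sequence) centred on a member summit, read 5′ to 3′ on the strand of the assigned gene, with capitals marking the letters of the elements. The windows are chrIV:390444-390544 on the minus strand for ears-2, chrIII:10461285-10461385 on the plus strand for atx-2, chrII:7708718-7708818 on the minus strand for B0495.9 and chrV:7230969-7231069 on the minus strand for gei-6.
ears-2: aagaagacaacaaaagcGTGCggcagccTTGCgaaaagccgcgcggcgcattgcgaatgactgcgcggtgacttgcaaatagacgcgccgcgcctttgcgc
atx-2: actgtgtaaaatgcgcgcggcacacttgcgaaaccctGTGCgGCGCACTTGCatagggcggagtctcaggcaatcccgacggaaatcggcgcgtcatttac
B0495.9: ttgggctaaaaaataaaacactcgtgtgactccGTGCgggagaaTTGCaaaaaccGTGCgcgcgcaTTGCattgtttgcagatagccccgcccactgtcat
gei-6: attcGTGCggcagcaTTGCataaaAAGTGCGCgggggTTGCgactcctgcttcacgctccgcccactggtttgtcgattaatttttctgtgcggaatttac
In ears-2, TTGC stood 4 times on the same strand at steps of 21 to 24 bp. In B0495.9 the spaced element occurred at 2 places, and in gei-6 also at 2, one of which overlaps an element built on GCGC. The windows of rpl-3, T13C5.6 and idhg-1 show strong members without any of the 4 elements and have no capitals. They are chrIII:3867537-3867637 on the plus strand for rpl-3, chrX:6207814-6207914 on the minus strand for T13C5.6 and chrIII:4568704-4568804 on the plus strand for idhg-1.
rpl-3: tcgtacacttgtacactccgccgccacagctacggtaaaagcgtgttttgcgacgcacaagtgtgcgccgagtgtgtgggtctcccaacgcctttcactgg
T13C5.6: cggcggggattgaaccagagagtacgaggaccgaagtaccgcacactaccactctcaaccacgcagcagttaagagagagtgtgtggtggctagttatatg
idhg-1: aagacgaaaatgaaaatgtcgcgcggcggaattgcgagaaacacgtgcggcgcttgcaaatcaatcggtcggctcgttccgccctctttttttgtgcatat

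The signal of members ran from 66.1 to 314 with a median of 82.9 (quartiles 72.4 and 104.4). The strongest was at ears-2, a mitochondrial glutamyl-tRNA synthetase gene, with a pooled signal of 314. It had rank 24 in replicate 1 and rank 15 in replicate 2. The head-to-head gene uncp-18, with its 5′ end 92 bp from that of ears-2, shares this peak, so position cannot assign it to ears-2 alone. The next peak was at rpl-3, which encodes a protein of the large ribosomal subunit, with a signal of 310 and ranks of 17 and 20. T13C5.6, annotated as a phosphatidic acid phosphatase family protein, had a signal of 277 and ranks of 20 and 48. These peaks ranked high in both replicate lists.

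Next came atx-2, the worm homolog of the RNA-binding protein ataxin-2, with a signal of 265 and ranks of 19 and 67. At tasp-1, a homolog of the protease taspase, the signal was 258 and the ranks were 21 and 72. At idhg-1, a mitochondrial isocitrate dehydrogenase subunit, the signal was 252 and the ranks were 54 and 31. For atx-2 and tasp-1 the rank was better in replicate 1, and for idhg-1 in replicate 2.

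The other 19 of the 25 strongest members had signals from 152 to 212. They included genes of the ribosome and its synthesis (rpl-15 at 186, rps-28 at 165, and the head-to-head pair gei-6 and krr-1 at 193). Other members were the HSP70 genes F44E5.4 and F44E5.5, which share 1 peak at 180, dnj-29 at 172, and cdc-48.1, which encodes a p97-type ATPase, at 177. Also among them were snr-1, an Sm protein gene whose peak at 208 is shared with the sorting nexin gene snx-13, and the RNA helicase gene C46F11.4 at 172. The set also held eif-3.C, a translation initiation factor subunit, at 176, sas-5, which is needed for centriole assembly, at 176, and C16C10.4, annotated as a SAP18 subunit of histone deacetylase complexes, at 195. The remaining members were pcrg-1 at 212, tos-1, annotated as a target of splicing, at 161, B0495.9 at 199.6, W01D2.3 at 173, nmad-1 at 167, the trehalase gene tre-1 at 159.6, spe-48 at 158 and Y39E4B.6 at 152. All 25 were ranked 149 or better in replicate 1 and 244 or better in replicate 2, all 25 summits lay upstream of the 5′ end, and 10 of them were inside the windows of 2 or more genes.

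Further down the list fewer members had a top 1000 peak in both replicates. A top 1000 peak of both replicates overlapped 133 of 280 members (47.5%, exact 95% interval 41.5 to 53.5), where 1.89% of all pooled peaks and 45.7% of the other 720 top 1000 peaks had such support. These intervals cover counting error only, and the pooled signal is made from the same reads, so this is no independent check of the members. An overlap of 1 bp was enough, so 1 replicate peak can support 2 members, as at W01D2.3 and sto-4. Requiring a top 1000 summit of each replicate within 100 bp left 43.6% of members. With the top 2000 peaks of each replicate the overlap held for 187 members (66.8%). By overlap with top 1000 peaks, from the highest to the lowest group of 70 members by signal, 69, 50, 11 and 3 had support from both. Members of low signal lie near the pooled rank of 1000, the rank also used to score support, so part of this fall follows from the cut. Replicate 1 alone supported 65 members, replicate 2 alone 54, and neither 28. The authors' list thresholded by reproducibility (IDR) held 141 members (50.4%, 44.3 to 56.4), beside 1.62% of all pooled peaks. That list is the 469 pooled peaks of highest signal, so a place in it follows from the signal that chose the members. Over the 278 members with a peak in each replicate, which share libraries and were chosen by pooled signal, Spearman's rho of the ranks was 0.416.

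**Figure D1:**
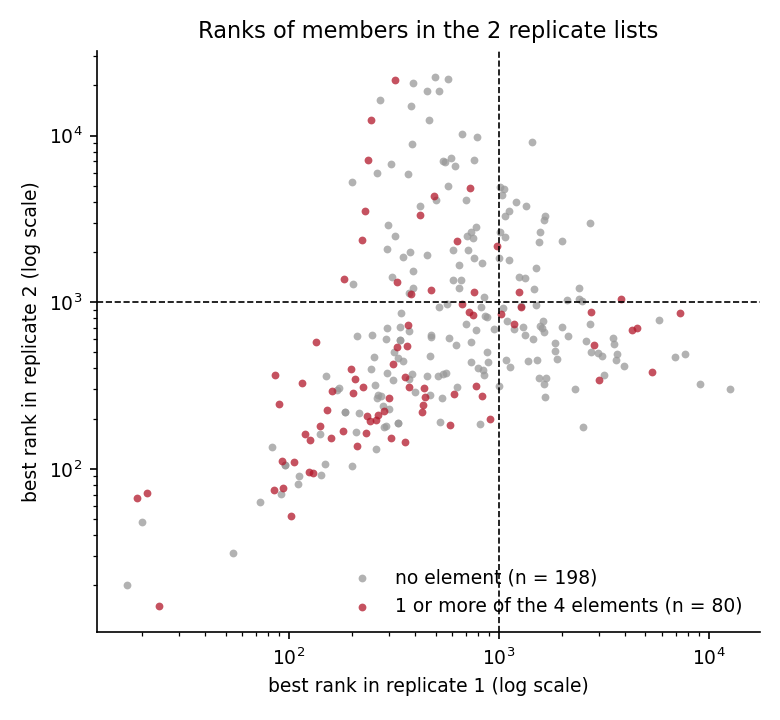
Best overlapping rank of each member in the list of replicate 1 (x axis) and replicate 2 (y axis), both on log scales, for the 278 members with a peak in each. Red points hold at least 1 of the 4 sequence elements within 50 bp of the summit, and dashed lines mark rank 1000. The strongest members lie low on both axes, and arms of points that are strong in 1 replicate run up and to the right.

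Examples show how far the arms reach. The peak at erh-1, a homolog of enhancer of rudimentary, ranked 246 in replicate 1 and 12373 in replicate 2. At F57A10.2, annotated as a major sperm protein, the ranks were 321 and 21581. In the other direction hpo-32 ranked 9065 in replicate 1 and 321 in replicate 2, and uaf-2, which encodes the small U2AF splicing factor subunit, 7316 and 865. Y22D7AR.3 and cct-2, a chaperonin subunit gene, had peaks in replicate 1 (ranks 204 and 497) and no overlapping peak among those listed for replicate 2. Where both replicates had a peak, their summits lay a median of 26 bp apart.

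Of the 56 members on chromosome III, 4 lay within 20 kb of the gene of the tagged protein itself, which the transgene carries in addition to the chromosomal copy. The summits were 785 bp from Y22D7AL.16 (at Y22D7AR.3, signal 76.5), 2339 bp (at Y22D7AL.15, 103), 3436 bp and 3656 bp (both at glb-30, 87.4 and 68.5). Whether transgene DNA adds to these peaks was not tested. Without them 276 members remained, with 29.0% holding a sequence element and 38.4% at head-to-head genes, close to the values for all members given below. No member lay within 20 kb of unc-119, the gene that the strain's mutation affects.

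Summits lay mostly upstream of the annotated 5′ ends. The window of the rule reaches 500 bp upstream and 100 bp downstream, so it favours upstream positions by itself. Member summits lay upstream in 256 of 280 (91.4%, 87.5 to 94.4), with a median position of -174.5 bp (quartiles -270.75 and -78, minus marking upstream). Of the 3651 promoter peaks ranked below 1000, which met the same position and small RNA rules and are called weaker promoter peaks from here on, 80.6% (79.3 to 81.9) lay upstream. The stretch over 100 and up to 300 bp upstream held 48.6% of members (42.6 to 54.6) and 35.1% of weaker promoter peaks (33.5 to 36.6). Between genes lay 85.7% of member summits and 66.7% of the weaker ones, in exons 11.1% and 26.7%. The bases at 51 member summits (18.2%) were soft-masked as repeats or low complexity, against 28.0% in weaker promoter peaks.

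**Figure D2:**
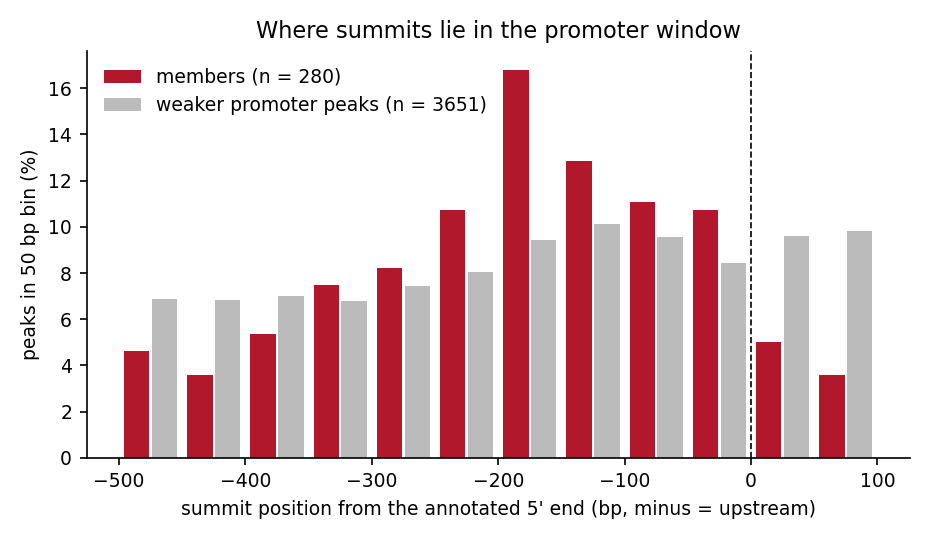
Share of summits (%, y axis) in 50 bp bins of position from the annotated 5′ end (bp, x axis, minus marking upstream) for 280 members in red and 3651 weaker promoter peaks in grey. Members are most frequent between 200 and 150 bp upstream, while the weaker peaks spread more evenly and run on past the 5′ end.

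Many members lay between genes transcribed away from each other. A neighbour on the opposite strand had its 5′ end within 1000 bp upstream of the assigned gene's in 106 members (37.9%, 32.2 to 43.8), against 17.1% (15.9 to 18.4) of weaker promoter peaks and 17.7% of all protein-coding genes. The share was 51.4% (39.2 to 63.6) in the 70 members of highest signal and 30% (19.6 to 42.1) in the 70 of lowest signal. The facing 5′ ends were a median of 492 bp apart. In all, 79 summits (28.2%) were in the windows of 2 or more genes, and such a peak cannot be assigned to 1 of them from position. Examples are rpl-12 with lin-54, a subunit gene of the DREAM repressor complex (signal 70.4), rsp-1 with rsp-2, both genes of SR splicing factors (103), eef-1A.1 with rfc-4 (74.1) and dnj-29 with ndua-2 (172). Same-strand genes ending within 500 bp upstream, as within operons, were about as frequent for members (18.6%) as for weaker promoter peaks (18.2%) and all genes (18.1%).

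Member summits were most frequent in the windows of cytosolic ribosomal protein genes, translation factor genes and chaperone genes. Of the 19973 protein-coding genes 356 had a member summit in their window (1.78%), which is the background for the counts that follow. Of 81 cytosolic ribosomal protein genes 15 did (18.5%, 10.8 to 28.7), and another 39 had only a weaker promoter peak. Of 39 translation factor genes 6 did (15.4%, 5.86 to 30.5), and of 66 chaperone genes 8 (12.1%, 5.38 to 22.5). These are counts of genes chosen by name patterns, with no test.

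The ribosomal protein genes were rpl-3, rpl-15 and rps-28, given above, then rps-20 (signal 146), rps-1 (131), rps-23 (129), rps-4 (113), rpl-35 (105), rpl-20 (105), rps-19 (102), rpl-5 (95.6), rpl-24.2 (94.7), rpl-38 (77.3), rpl-12 (70.4) and rpl-22 (68.2). Of these, rpl-24.2 is annotated as a ribosome biogenesis factor. The peaks of rps-20, rps-23, rps-19, rpl-20 and rpl-5 are shared with genes whose 5′ ends are nearer. Those genes are ekl-4, dpm-3, hsr-9, Y17G9B.5 and col-38, in the same order. From position, such peaks cannot be assigned to the ribosomal protein gene alone, and the peak of rpl-5 and col-38 also counts for collagens. Both subunits were present, and 11 of the 15 had a top 1000 peak in both replicates. Their summits ran from -458 bp at rps-28 to -57 bp at rpl-12.

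**Figure D3:**
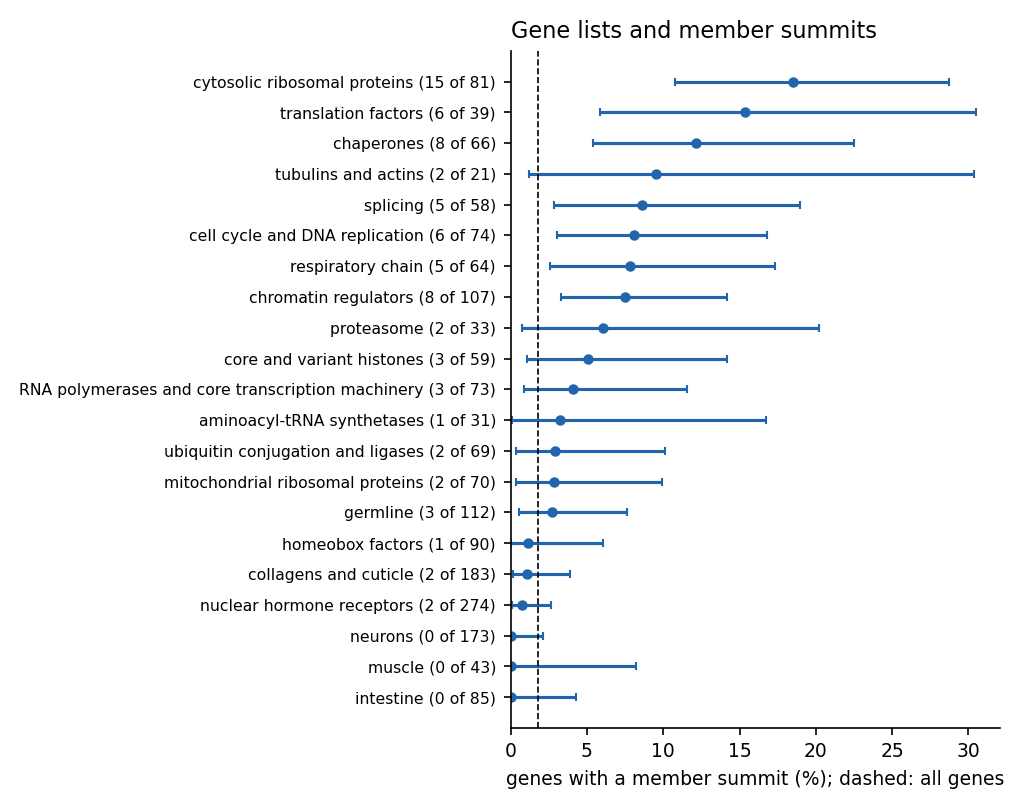
Share of each list's protein-coding genes with a member summit in their window (%, x axis; points with exact 95% intervals, counting error only), with counts beside the names. The dashed line is the share over all protein-coding genes (1.78%). Lists follow patterns of gene names, and a peak shared by genes counts for each of them. The intervals of 7 lists lie above the line, those of ribosomal proteins, translation factors, chaperones, splicing, the cell cycle and replication, the respiratory chain and chromatin regulators.

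The translation factors were eif-3.C (signal 176), eif-3.I (81.3), eef-2 (77.1), eef-1A.1 (74.1), eef-1A.2 (73.7) and iff-2 (70.8). Of these, only eif-3.C had a top 1000 peak in both replicates. The chaperone genes matched by name were led by dnj-29 (172), dnj-19 (114), dnj-9 (100.03) and cct-1, a chaperonin subunit gene (96.7). The HSP70 genes F44E5.4 and F44E5.5, given above, lie outside the name pattern, and their shared peak (180) was stronger. The peak of dnj-19 is shared with the nuclear receptor gene nhr-47, whose 5′ end is nearer. Those of cct-1 and eef-1A.1 are likewise shared with genes of nearer 5′ ends, mig-5 and rfc-4.

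Among genes of nuclear processes, 8 of 107 chromatin regulator genes had a member summit (7.48%, 3.28 to 14.2), 5 of 58 splicing genes (8.62%, 2.86 to 19.0) and 6 of 74 genes of the cell cycle and replication (8.11%, 3.03 to 16.8). The last 6 were matched by name only and include cdc-48.1, the p97-type ATPase gene, and cdk-9. They also include rfc-4, whose peak, shared with eef-1A.1, ranked 390 in replicate 1 and 20777 in replicate 2. The chromatin genes matched by name were led by lin-35, the worm retinoblastoma-like gene (signal 120), and swsn-3, a SWI/SNF complex gene (103). Outside the name pattern, C16C10.4, given above (195), and F39G3.3, annotated as a histone H3-K79 methyltransferase (122), had higher signals. Cell division genes besides sas-5 included the kinetochore genes knl-3 (133) and knl-1 (77.2), and mcm-10 (93.4), which acts in replication. In energy metabolism 5 of 64 respiratory chain genes had one (7.81%, 2.59 to 17.3). These were ndua-2 (172), nuo-2 (101), ndua-1 (99.0) and nduf-11 (83.0), which belong to complex I, and cyc-1 (76.9), cytochrome c1 of complex III. A sequence element was present in the peaks of all 5, of 4 of 5 splicing genes, 4 of 15 ribosomal protein genes, 3 of 8 chaperone genes, 2 of 8 chromatin genes, 1 of 6 translation factor genes and 1 of 6 genes of the cell cycle, beside 28.6% of all members. These counts were looked at after those of the lists. They count genes, and rsp-1 and rsp-2 share 1 peak, as do ndua-2 and the chaperone gene dnj-29. The remaining lists of general functions held 2 of 33 proteasome genes, 3 of 73 genes of RNA polymerases and core machinery, 2 of 70 of mitochondrial ribosomes, 1 of 31 tRNA synthetases, 2 of 69 of ubiquitin conjugation, 3 of 59 histones and 2 of 21 tubulins and actins. The background of 1.78% lies inside the interval of each of these remaining lists, so their counts cannot be told apart from it.

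The lists for differentiated cells and the germline had counts that cannot be told apart from the background of 1.78%, which lies inside each interval. There were 0 of 43 for muscle, 0 of 173 for neurons (an interval that reaches 2.11%) and 0 of 85 for intestine. There were 2 of 274 for nuclear hormone receptors (0.730%, 0.0885 to 2.61), 1 of 90 for homeobox factors (1.11%, 0.0281 to 6.04), 2 of 183 for collagens (1.09%, 0.133 to 3.89) and 3 of 112 for the germline (2.68%, 0.556 to 7.63). Levels of RNA were not measured here.

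The DNA at member summits was rich in G and C. Within 50 bp of the summit GC content was 46.5% ± 9.08 (SD over 280 peaks), against 40.03% ± 8.89 in weaker promoter peaks, 47.4% ± 9.22 in the 453 top 1000 peaks outside promoters and 50.8% ± 6.84 in the 267 at small RNA genes. CpG stood 7.04 times per window on average, against 4.26. GC content was 50.1% in the 70 members of highest signal and 45.997%, 44.8% and 45.2% in the next groups of 70, and its part in the results on sequence was not tested beyond the strata given below. Of 12 motifs chosen by name or use, GGGCGG was present in 12.1% of member windows (8.56 to 16.6), against 4.41% of weaker promoter peaks and 2.37% of all promoters. CCCGCC was present in 10.4%, against 4.33% and 2.17%, and can overlap GGGCGG. Both strands were searched, and the windows of all promoters were of the same length, centred at -174 bp. The GAGA repeat GAGAGA was in 16.4% of members, against 10.5% and 8.10%, and in 19.6% of the top 1000 peaks outside promoters. In those peaks GGGCGG was present in 7.95% (5.63 to 10.8).

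TTTTTT and TATAAA were less frequent in members than in weaker promoter peaks, as they were in the top 1000 peaks outside promoters. TTTTTT stood in 23.6% of members, 36.3% of weaker promoter peaks and 45.6% of all promoters, and in 18.8% of the top 1000 peaks outside promoters and 20.6% of those at small RNA genes. TATAAA, the core of the TATA box, stood in 5.71%, 9.31%, 13.0%, 3.53% and 6.37% in the same order. TGATAA, the core of GATA factor sites, stood in 3.57% of members (1.73 to 6.47), an interval that reaches the 6.38% of weaker promoter peaks, and in 11.6% of all promoters. The E-box CACGTG (2.86%), CCAAT (15%), TGACGTC (1.43%), CTGCGTC (2.86%) and the splice acceptor letters TTTCAG (13.2%) had member intervals that reached the share in weaker promoter peaks (1.94%, 19.0%, 0.986%, 2.96% and 16.4%). TTTGAA stood in 21.1% of members and 21.2% of the weaker peaks. The absence of letters from a window of 101 bases says nothing about a factor.

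Members held the letters of tRNA genes about as often as other promoters did. The B box, an internal promoter element through which genes of RNA polymerase III recruit TFIIIC, was searched as GTTCNANNC on both strands after the window of T13C5.6 was seen to hold it. It stood in 10 of 280 members (3.57%, 1.73 to 6.47), 3.10% of weaker promoter peaks and 2.95% of all promoters, against 133 of the 267 top 1000 peaks at small RNA genes (49.8%, 43.7 to 55.97). With a G before these letters the share was 0.714% (2 members), 0.575%, 0.516% and 35.96% in the same order. These 2 members were T13C5.6 and C18B12.4 (signal 73.1, ranks 706 and 2499), both on the X chromosome. Both summits lay within 200 bp of a gene annotated as ncRNA, a class that the rule did not use and that lay this close to 34 members (12.1%).

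More specific sequence emerged when all pairs of 4 letters separated by 0 to 16 bases were ranked by the difference in share between members and weaker promoter peaks. Since the ranking used these windows, the shares that follow describe the members and test nothing. The pair in the first place was GTGC and TTGC with 7 bases of any kind between them, called the spaced element here. It stood in 32 members (11.4%, 7.95 to 15.7), against 0.794% of weaker promoter peaks, 0.883% of top 1000 peaks outside promoters, 0% at small RNA genes and 0.355% of all promoters. Pairs next in the ranking were shifted or 1-letter variants of it, or held GCGC inside 1 run of letters. The latter gave the other 3 elements. The first GCGC element, AAACGCGC, stood in 29 members (10.4% against 1.34%), the second, AAGTGCGC, in 24 (8.57% against 0.849%) and the third, GCGCNAGCA, in 23 (8.21% against 0.630%). All were searched on both strands.

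At least 1 of the 4 was present in 80 members (28.6%, 23.4 to 34.2), against 115 of 3651 weaker promoter peaks (3.15%, 2.61 to 3.77), 14 of 453 top 1000 peaks outside promoters (3.09%) and 4 of 267 at small RNA genes (1.498%). Among all promoter windows it was 298 of 19973 (1.49%). The GCGC elements share letters and could stand in the same window: 13 members held the first with the third, 8 the second with the third and 8 the first with the second. Whether they lay at the same site in these windows was not counted. A GCGC element was present in 52 members and the spaced element in 32, with 4 members holding both kinds.

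The difference was examined within strata of GC content. In windows of 40 to 50% GC an element was present in 40 of 112 members (35.7%, 26.9 to 45.3) and 65 of 1268 weaker promoter peaks (5.13%, 3.98 to 6.49). From 50 to 60% GC it was 32 of 93 (34.4%, 24.9 to 44.98) and 21 of 449 (4.68%, 2.92 to 7.06). Below 40% GC it was 6 of 63 (9.52%, 3.58 to 19.6) and 27 of 1884 (1.43%, 0.947 to 2.08). At 60% GC and over it was 2 of 12 (16.7%, 2.09 to 48.4) and 2 of 50 (4%, 0.488 to 13.7), whose intervals overlap.

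The share was higher among promoter peaks of better rank. Of 15 ranked 1 to 100 in the pooled list, 7 held an element (46.7%, 21.3 to 73.4), of 45 ranked 101 to 250 60% (44.3 to 74.3), of 91 ranked 251 to 500 30.8%, and of 129 ranked 501 to 1000 13.95%. Past rank 1000 it was 6.85% (3.88 to 11.0) for ranks 1001 to 2000 and 2.42% (1.83 to 3.13) past rank 10000. The spaced element was the more concentrated in strong peaks, with 23, 5, 2 and 2 of 70 members from the highest to the lowest group by signal. Mean GC content fell along the same ranks, from 53.1% to 39.2%. Members with a top 1000 peak in both replicates held an element in 39.8% (31.5 to 48.7), the others in 18.4% (12.5 to 25.6). Peaks of each replicate that are no members were looked at after the elements were picked. Of 57 promoter peaks in the top 1000 of replicate 1 without a member summit within 200 bp, 8 held an element (14.04%, 6.26 to 25.8). Of 77 such peaks of replicate 2, 1 did (1.30%, 0.0329 to 7.02), and the intervals overlap.

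**Figure D4:**
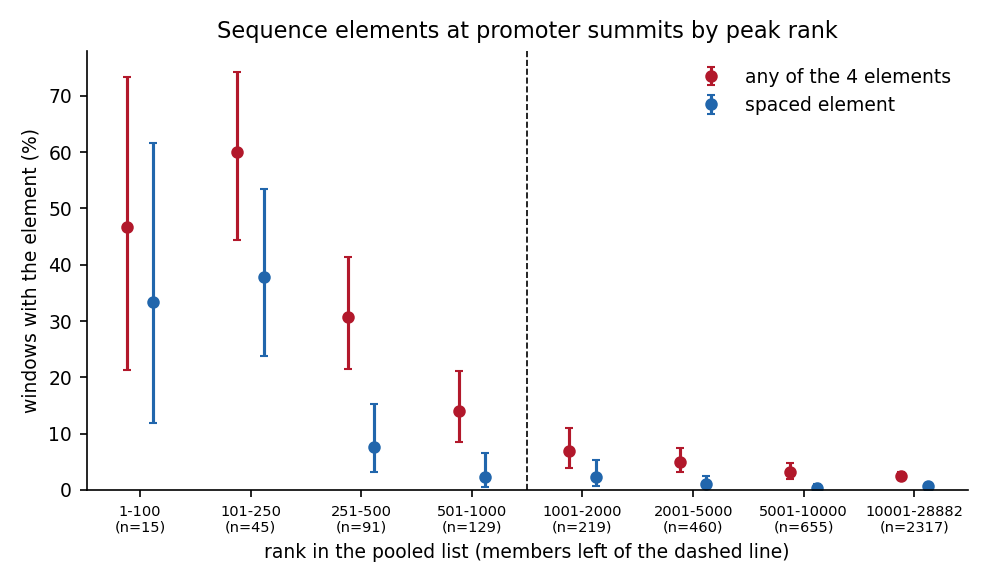
Share of promoter peaks (%, y axis) with an element within 50 bp of the summit, by rank in the pooled list (x axis, with the number of peaks), for any of the 4 elements in red and the spaced element in blue, with exact 95% intervals. Members are left of the dashed line. The shares stay under 10% past rank 1000 and reach 60% for any element at ranks 101 to 250.

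The elements were picked for standing within 50 bp of member summits, so their distances to summits are a description. Of 47 spaced element sites within 190 bp of a member summit, 32 lay within 30 bp (68.1%, 52.9 to 80.9), and for the GCGC elements it was 20 of 39, 22 of 30 and 20 of 30 in their order. The spaced element read in the direction of the assigned gene at 29 of 40 sites within 50 bp (72.5%, 56.1 to 85.4), although many of these promoters lie between genes on opposite strands. The first GCGC element did so at 22 of 33 sites (66.7%, 48.2 to 82.04), the second at 10 of 25 and the third at 12 of 28.

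The next lines show spaced element sites of other members, 37 bases each on the strand of the element, with its fixed letters in capitals. They are chrIII:10759196-10759232 on the minus strand for tasp-1, chrV:11610651-11610687 on the plus strand for sas-5, chrIII:3664420-3664456 on the minus strand for C46F11.4, chrIV:1659244-1659280 on the plus strand for rps-28, chrIII:3175153-3175189 on the plus strand for R148.3 and chrIV:1595984-1596020 on the minus strand for npp-8.
tasp-1: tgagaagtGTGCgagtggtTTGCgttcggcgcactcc
sas-5: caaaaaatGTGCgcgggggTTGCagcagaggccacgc
C46F11.4: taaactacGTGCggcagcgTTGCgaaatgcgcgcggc
rps-28: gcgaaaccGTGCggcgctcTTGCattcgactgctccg
R148.3: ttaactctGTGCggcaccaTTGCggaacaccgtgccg
npp-8: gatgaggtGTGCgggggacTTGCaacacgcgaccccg
The bases between and around the fixed letters were also uneven. Over 37 sites in member windows, counted from the G of GTGC as position 1, G stood at position 5 in 78.4% and at position 6 in 70.3%, and C at position 7 in 62.2%. The base after TTGC, at position 16, was A in 64.9% and G in 35.1%, and A followed at positions 17 to 19 in 62.2%, 70.3% and 64.9%. Before the element, A stood at position -5 in 78.4% and at position -6 in 70.3%.

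In members, windows with the spaced element often held copies of TTGC at a set distance. When the distances between copies of TTGC on the same strand of a window were counted, 22 bp stood out: 15 of the 32 members with the spaced element had such a pair (46.9%, 29.1 to 65.3), and 24 (75%, 56.6 to 88.5) had a pair from 21 to 24 bp apart. Of the 29 weaker promoter peaks with the spaced element 12 had one from 21 to 24 bp apart (41.4%, 23.5 to 61.1). Among the 248 other members it was 13 (5.24%, 2.82 to 8.80), and among all 3651 weaker promoter peaks 84 (2.30%). Runs of 3 or more copies at such steps were found in 3 of the 29 weaker peaks with the element (10.3%). In members with it they were found in 3 of 32 (9.38%), ears-2, with 4 copies, and dnj-29 and vps-39, with 3. The distance was noticed in these windows and is a description. Windows with the spaced element hold TTGC by definition, so the weaker peaks with the element are the nearest comparison.

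**Figure D5:**
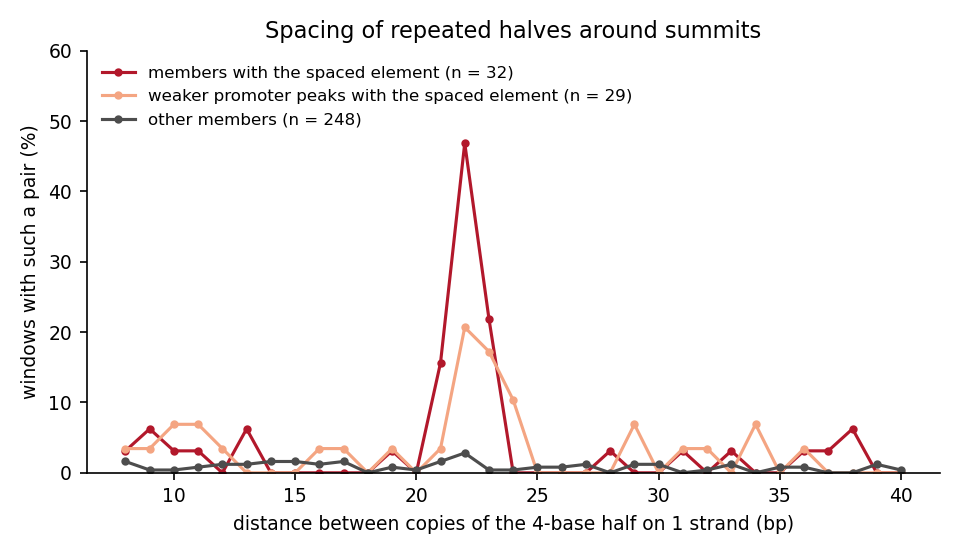
Share of windows (%, y axis) that hold copies of the 4-base sequence at the end of the spaced element at a given distance on the same strand (bp, x axis). Members with the spaced element (red) and weaker promoter peaks with it (light) both rise at 22 and 23 bp, and the other members (dark) stay at or under 2.82% at each distance.

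The third GCGC element is shown at 4 members, 25 bases each on its own strand, with its fixed letters in capitals. The sites are chrV:7060521-7060545 on the minus strand for Y57E12AL.1, chrV:5505216-5505240 on the plus strand for nhr-47, chrV:12343746-12343770 on the minus strand for tomm-20 and chrIII:4963083-4963107 on the plus strand for C27F2.9.
Y57E12AL.1: cgagaaacGCGCcAGCAaaccgcct
nhr-47: cgcgaaacGCGCcAGCAtccaataa
tomm-20: cgaaaagtGCGCaAGCAtgtttgct
C27F2.9: cgcgaagtGCGCcAGCAcgagaata
These belong to genes as different as tomm-20, a subunit of the mitochondrial import receptor, and the nuclear receptor gene nhr-47. Over 28 sites, counted from the G of GCGC as position 1, C stood 8 bases before the element (position -8) in 92.9%, G or A at position -5 in 100%, and A at positions -4 and -3 in 85.7% each. The base just before GCGC was T in 67.9% and C in 25%. The letters of the second GCGC element, or with C at that place those of the first, can therefore run into the third.

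The elements were found at few of their matches in the genome. The nuclear genome has 2428 spaced element sites. Of the 304 in promoter windows 40 had a top 1000 summit within 50 bp (13.2%, 9.57 to 17.5), of the 2124 elsewhere 4 did (0.188%, 0.0513 to 0.481). With GG after GTGC the share in promoters was 22 of 79 (27.8%, 18.3 to 39.1) and elsewhere 4 of 476. For the third GCGC element it was 28 of 175 in promoters (16%, 10.9 to 22.3) and 3 of 623 elsewhere. Summits outside promoters and near small RNA genes are counted here too. The elements were picked from member windows, which lie in promoters and under top 1000 summits, so the selection favours this contrast and it is a description.

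Members were spread over all chromosomes, with 50 on I, 55 on II, 56 on III, 36 on IV, 51 on V and 32 on X. Chromosome III held 20% (15.5 to 25.2) of members, against 16.1% of weaker promoter peaks and 13.2% of genes, and chromosome V 18.2%, against 18.2% and 25.004%. The X chromosome held 11.4% (7.95 to 15.7) of members, against 15.04% and 13.7%.

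On the X chromosome the elements were rare at member summits. An element stood in 1 of 32 members on X (3.13%, 0.0791 to 16.2), against 25.5% on II, 30% on I, 30.4% on III, 36.1% on IV and 39.2% on V. Matches to the 4 elements were present in X promoters at 52.4 per 1000 genes, near the 54.3 on V and below the 83.7 on I, counting a site once for each element it matches. Of those 143 matches on X, 1 had a top 1000 summit within 50 bp (0.699%, 0.0177 to 3.83), while on the autosomes it was 7.46% to 14.4%. For the spaced element it was 0 of 37 on X, which allows up to 9.49%. Any pooled summit, of whatever rank, was within 50 bp of 14.7% of the X matches and of 19.1% to 31.6% on the autosomes. The elements were picked from member windows, of which most are autosomal, so this is a description. T13C5.6, printed above, was the strongest member on X, and it holds none of the elements. The cause was not tested.

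Members just inside and peaks just outside the limits of the rule are given as a description. The last member by rank was zmp-2 at 66.1255, and the first promoter peak past the limit was Y94H6A.5 at 66.1191. The most upstream member was at elks-1 (-496 bp, signal 70.7), and the nearest top 1000 peak outside that limit was at K12H4.5 (-503 bp), rank 2 of all pooled peaks with a signal of 600.5. At the downstream limit stood Y22D7AL.15 (98 bp, signal 103) and, outside, mrt-2 (105 bp, 69.5). The member nearest a small RNA gene was cdc-48.1 (499 bp), and T04D3.5 (176 bp) was the promoter peak left out at the greatest distance. The genes with 2 members each were W01D2.3, daf-19, glb-30 and sto-4, so the 280 members were assigned to 276 genes.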

How the data were processed

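Anti-GFP ChIP-seq of 2 biological replicates in 1 group was given as peak lists. The authors, per the deposited file listing, made lists of peaks for each replicate and for both pooled against a control and thresholded the pooled list by reproducibility (IDR). Aligner, caller and threshold: not given in the sources used here. The deposited lists give a signal value per peak, a −log10 q value, which was not used, and the offset of the summit, another deposited value. The ce11 lists held 28882 pooled peaks, 30000 in each replicate and 469 thresholded peaks, which are all in the pooled list. The pooled and replicate lists are deposited as peaks and background, the input for IDR. Lists in ce10 were not used.

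Summits were placed against Ensembl release 115 genes and RefSeq sequence and products of WBcel235 (ce11), counted from 1. Gene products were matched by WormBase gene identifier for the assigned genes of all 280 members. Of the 5′ ends whose window held a summit the nearest was assigned. Replicate support needs an overlap of 1 bp. Motifs were searched in 101 bp windows. The 21 gene lists use patterns of gene names. Some further items are not reported here. Genes were named as those of the 25 strongest members and up to 4 per list by signal. All ribosomal protein and translation factor genes of the lists are given. Members at the limits of the rule were also named. So were examples of unlike replicates, of sequence elements and of genes outside the name patterns, chosen after their values were seen. The members, lists and motifs were chosen with earlier results of these data known. Peaks are no replicates of a condition, so there are no p-values. Intervals are exact Clopper-Pearson 95% intervals and cover counting error only. Procedures were tested on simulated data. Python 3.11.15, numpy 2.4.6, pandas 2.3.3, SciPy 1.17.1 and matplotlib 3.10.9 were used.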

Additional observations from a re-analysis of the deposited data

How the results depend on the processing

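No paired analysis was possible because there is 1 group and no second one to pair its replicates with. Of 77 recomputed values, 58 stayed within the interval of a share, within 1.5 times a count or within the spread between replicates of a mean or median, 19 moved and 0 changed sign. Most moves follow from how many peaks were taken. With the 500 pooled peaks of highest signal there were 151 members, 81.5% of them with a top 1000 peak in both replicates, 93.4% in the thresholded list, 94.7% upstream, 44.4% at head-to-head genes, a median position of -180 bp and 48.0% GC. With 2000 pooled peaks there were 499 members, 26.9% with support from both replicates and 28.3% in the thresholded list. A promoter window of 250 bp upstream to 50 bp downstream gave a median of -133 bp and 44.97% at head-to-head genes, and one of 1000 bp upstream a median of -202 bp, which the window sets. Taking the top 500 peaks of each replicate left 30.4% supported by both, windows of 100 bp either side gave 42.2% GC and GGGCGG in 18.2%, and a limit of 500 bp between facing 5′ ends gave 19.6% at head-to-head genes. Choosing members from the top 1000 of 1 replicate alone gave 246 to 259 members, 92.3% to 92.7% upstream, medians from -183 to -175.5 bp, 36.3% to 39.8% at head-to-head genes, 45.4% to 46.99% GC, any element in 22.8% to 29.7%, the spaced element in 10.0% to 12.2%, 319 to 321 genes with a member summit and 14 to 15 ribosomal protein genes. The share of 22.8% with any element came from replicate 2 alone and moved, as it lies below the main interval of 23.4 to 34.2. The median of -183 bp, also from replicate 2 alone, moved too. Leaving out the members near Y22D7AL.16 was added after the data were seen and moved none of its 12 values. Depth is unknown, so a promoter without a peak in a list may still be bound.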
